A study of Mus musculus with 44 samples.

Results

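The Klf transcription factors described here are *Klf2*, *Klf3*, *Klf4*, *Klf5*, *Klf6*, *Klf9*, *Klf10*, *Klf13*, *Klf16* and *Klf17*, 10 of the 35269 genes in the table of mouse two-cell embryos. They were taken by name, and all 10 passed the filter on low values. RNA-seq was performed on 44 single embryos from 6 litters of natural matings on a C57Bl/6 background, with 2 litters of each of 3 crosses. WT embryos (n = 14; 10 and 4 per litter) were Dppa2/4+/+ and came from control females and Dppa2/4+/+ males (ctrl-x-WT). HET1 embryos (n = 15; 7 and 8 per litter) were Dppa2/4+/- and came from females that lacked *Dppa2* and *Dppa4* in the oocyte, mated with Dppa2/4+/+ males (cKO-x-WT). HET2 embryos (n = 5; 4 and 1 per litter; Dppa2/4+/-) and HOM embryos (n = 10; 3 and 7 per litter; Dppa2/4-/-) were littermates from the same kind of female and Dppa2/4+/- males (cKO-x-HET). The HET1, HET2 and HOM embryos therefore shared the loss of the maternal stores. The floxed alleles had been deleted with Zp3-Cre, which is active in growing oocytes, so WT embryos differed from the others in the mother as well as in the embryo. Genotypes in the cKO-x-HET litters had been assigned by the authors from the *Dppa2* and *Dppa4* transcripts, so these genes are no check of those labels.

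Klf proteins are transcription factors with C2H2 zinc fingers at the C terminus that bind CACCC boxes and related GC-rich sites. Their N-terminal parts differ and set the partners: *Klf3* encodes a repressor that recruits CtBP, *Klf2*, *Klf4*, *Klf5* and *Klf6* encode mainly activators that work with acetyltransferases, and *Klf9*, *Klf10*, *Klf13* and *Klf16* encode factors that recruit the Sin3 and histone deacetylase complex. *Klf17* stands apart from these groups and is known from germ cells and the early embryo. *Klf2*, *Klf4* and *Klf5* are known for their part in pluripotency, *Klf4* as a reprogramming factor and *Klf5* as a gene needed to form a normal blastocyst.

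Depth and markers were examined first. Total reads per embryo ranged from 247667 to 3163026 (median 1019539), with a median of 1770010 in WT, 528166 in HET1, 1108889 in HET2 and 803369 in HOM. Levels below are log2 RPM, reads relative to all reads of the library, in which every value under 1.86 was raised to that common floor, the value of a gene without reads in the shallowest embryo. Each library is a whole embryo, so less RNA per cell and RNA from fewer cells cannot be told apart. Because of this floor, differences of low genes are understated. *Dppa2* stood between 7.67 and 9.40 log2 RPM in WT, between 5.33 and 8.43 in HET1, between 4.77 and 8.88 in HET2 and between 1.86 and 2.05 in HOM. The highest HET2 value was that of HET2 e (814 reads), the single HET2 embryo of the second litter, which lay within the WT range and above every HET1 embryo; the other 4 reached at most 6.66. *Dppa4* stood at 5.77 in HET2 e, under the WT range of 6.33 to 8.47. Of 8 cumulus and granulosa cell markers, *Fshr* and *Ptx3* stayed at the floor in every embryo, and *Amhr2* alone passed 5 log2 RPM. Their summed level ran from 5.41 to 113 RPM in cKO-x-HET embryos, 0.0 to 73.2 RPM in cKO-x-WT embryos and 11.4 to 79.1 RPM in ctrl-x-WT embryos. The 3 blood markers summed to at most 4.15 RPM and the 3 markers of later embryos to at most 11.1 RPM. The 5 oocyte markers were present throughout, at 895 to 4132 RPM in sum, as were the 6 two-cell markers, at 208 to 1485 RPM. Profiles of 3 embryos were least like the others, WT k (median correlation with the other embryos 0.652), HET1 h (0.751) and WT j (0.753), and values without them are given where a call was lost.

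All 10 genes are protein-coding and lie on 9 chromosomes of GRCm38, with *Klf4* (chromosome 4, 55527143 to 55532466) and *Klf17* (chromosome 4, 117757836 to 117765648) on the same one, both on the reverse strand. *Klf2* lies on chromosome 8 from 72319033 to 72321656, *Klf6* on chromosome 13 from 5861482 to 5870394 and *Klf9* on chromosome 19 from 23141226 to 23166911, all on the forward strand, and *Klf10* on chromosome 15 from 38291463 to 38300706 on the reverse strand. Their merged exons span 1847 bp in *Klf2* to 11243 bp in *Klf3*. The deposited coordinates equal those of the GENCODE annotation except in *Klf9*, whose deposited end lies upstream of the annotated one at 23168134. In *Klf3*, exons overlap other annotated genes over up to 404 bp, one of them on the opposite strand, and reads were counted without strand, so its level may hold reads of these genes.

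Promoter sequences from RefSeq (GRCm38.p6) were at hand for 7 of the 10 genes. The sites that Klf proteins themselves bind were searched in the first 250 bases of each sequence, its upstream part. The letters searched were CACCC and its complement GGGTG, and the GC box GGGCGG and its complement CCGCCC. At least 1 CACCC letter run on either strand was present in 5 of the 7, against 52.0% of 32851 promoters, and at least 1 GC box in 6 of the 7, against 32.7%. GC content ran from 52.0% in *Klf17* to 78.4% in *Klf3*, against a median of 52.4% over all promoters. Of the 250 bases searched, only 117 lay before the annotated gene start in *Klf3*, 221 in *Klf2* and 243 in *Klf6*. The rest is annotated as transcript, and the GC content and matches of these genes include it. Below are the promoters of the most abundant member per length (*Klf17*) and of the pair called lower in one HET1 litter (*Klf2* and *Klf9*), 5′ to 3′ on the strand of the gene and with these letters in capitals. The stretches are chr4:117765667-117765916 (reverse strand), chr8:72318812-72319032 (forward strand, ending at the base before the annotated gene) and chr19:23140976-23141225 (forward strand).
Klf17: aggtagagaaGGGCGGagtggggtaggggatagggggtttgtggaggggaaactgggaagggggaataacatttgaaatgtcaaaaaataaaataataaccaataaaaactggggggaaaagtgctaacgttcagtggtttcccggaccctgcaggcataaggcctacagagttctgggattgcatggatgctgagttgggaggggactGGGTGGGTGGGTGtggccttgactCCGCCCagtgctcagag
Klf2: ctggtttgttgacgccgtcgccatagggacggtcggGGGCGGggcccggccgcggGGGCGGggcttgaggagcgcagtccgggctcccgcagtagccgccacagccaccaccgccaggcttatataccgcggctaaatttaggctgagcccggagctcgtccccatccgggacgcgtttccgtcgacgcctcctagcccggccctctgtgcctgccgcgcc
Klf9: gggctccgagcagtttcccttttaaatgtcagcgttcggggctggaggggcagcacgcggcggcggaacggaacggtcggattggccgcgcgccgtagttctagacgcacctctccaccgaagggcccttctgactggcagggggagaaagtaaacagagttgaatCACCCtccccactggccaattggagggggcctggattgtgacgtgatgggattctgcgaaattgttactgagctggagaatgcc
*Klf17* holds 3 overlapping GGGTG runs close to the start site and 2 GC boxes, one at either end of the stretch. *Klf2* holds 2 GC boxes and no CACCC run in the stretch shown, and *Klf9* a single CACCC run and no GC box. A GGGTG run of *Klf2* lies in the last bases of the window searched, which the annotation places in the transcript and which are left out here. These are matches of letters and no evidence of binding.

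The first question was how much of each Klf transcript a two-cell embryo holds. *Klf17* had reads in 44 of 44 embryos (median 351 reads) and a level of 8.34 ± 0.75 log2 RPM (SD, n = 44). Of the activators, *Klf5* stood at 5.75 ± 0.73 and *Klf4* at 4.42 ± 1.22 log2 RPM, both with reads in every embryo, whereas *Klf6* (2.68 ± 1.19) and *Klf2* (2.37 ± 0.95) were near the floor. The Sin3-binding group stood at 5.78 ± 1.17 (*Klf16*), 5.46 ± 1.14 (*Klf9*), 4.40 ± 0.99 (*Klf13*) and 3.58 ± 1.58 (*Klf10*), and the repressor *Klf3* at 3.96 ± 1.06 (SD, n = 44 for each). *Klf6* and *Klf2* had a median of 2 reads each, and no read in 17 and 18 embryos. In those embryos they were not detectable at this depth, which is not the same as absent.

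**Figure D1:**
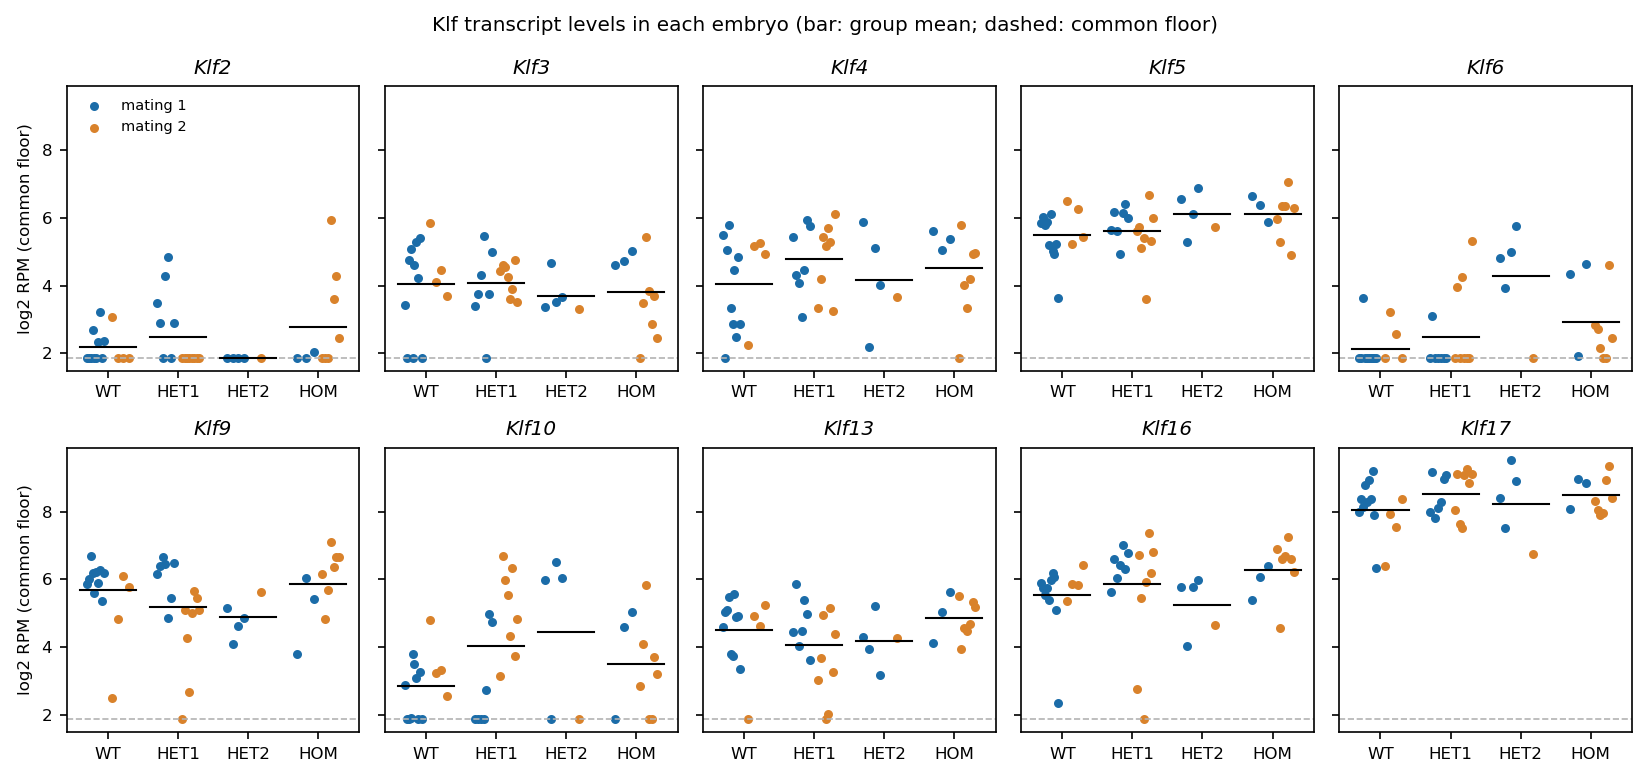
Level of each Klf gene (log2 RPM with the common floor, y axis) in each embryo by group (x axis), coloured by the mating number within each cross; bars are group means and the dashed line is the floor at 1.86. *Klf17* lies between 6.34 and 9.52 in every embryo, *Klf2* and *Klf6* lie at the floor in many, and *Klf10* of HET1 separates largely by litter.

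Levels of different genes were compared per length, as RPM per kb of merged exon. In the WT embryos the medians were 124 RPM per kb for *Klf17*, 20.8 for *Klf16*, 12.8 for *Klf9*, 9.50 for *Klf5*, 8.31 for *Klf4*, 3.98 for *Klf13*, 1.97 for *Klf2*, 1.90 for *Klf10*, 1.80 for *Klf3* and 0.83 for *Klf6*. The values of *Klf2* and *Klf6* are those of the floor. *Klf17* exceeded *Klf16* in 14 of 14 WT embryos, by 2.66 ± 0.73 on the log2 per-kb scale (SD, n = 14). Every later step of this order was smaller than its spread between embryos: *Klf16* exceeded *Klf9* by 0.71 ± 1.42, *Klf9* exceeded *Klf5* by 0.28 ± 1.41, *Klf5* exceeded *Klf4* by 0.69 ± 1.49 and *Klf4* exceeded *Klf13* by 0.84 ± 1.14 (SD, n = 14). *Klf5* was above *Klf4* in only 6 of 14 WT embryos, so the order of this pair differs between the mean and the count. The oligo-dT primed libraries cover transcripts unevenly, so values per length are approximate.

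Levels per length were also summed over the 10 members, which leaves out *Klf7*, *Klf8* and *Klf11*. *Klf17* made up a median of 66.6% of this sum in WT (40.3% to 80.1%), 68.2% in HET1 (56.9% to 83.7%), 69.5% in HET2 (53.4% to 78.3%) and 63.9% in HOM (45.7% to 73.4%). The ranges overlapped throughout, and *Klf17* and *Klf16* ranked first and second by their medians in each of the 4 groups. The ranks below differed between groups. *Klf10* had rank 3 in HET2 at 15.0 RPM per kb and rank 8 in WT at 1.90, and *Klf6* had rank 5 in HET2 at 6.41 and was last in WT. In WT *Klf10* ranked under *Klf2*, whose median of 1.97 is that of the floor. The HET2 ranks of *Klf10* and *Klf6* rest on the first litter, as HET2 e had no read of either gene.

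**Figure D2:**
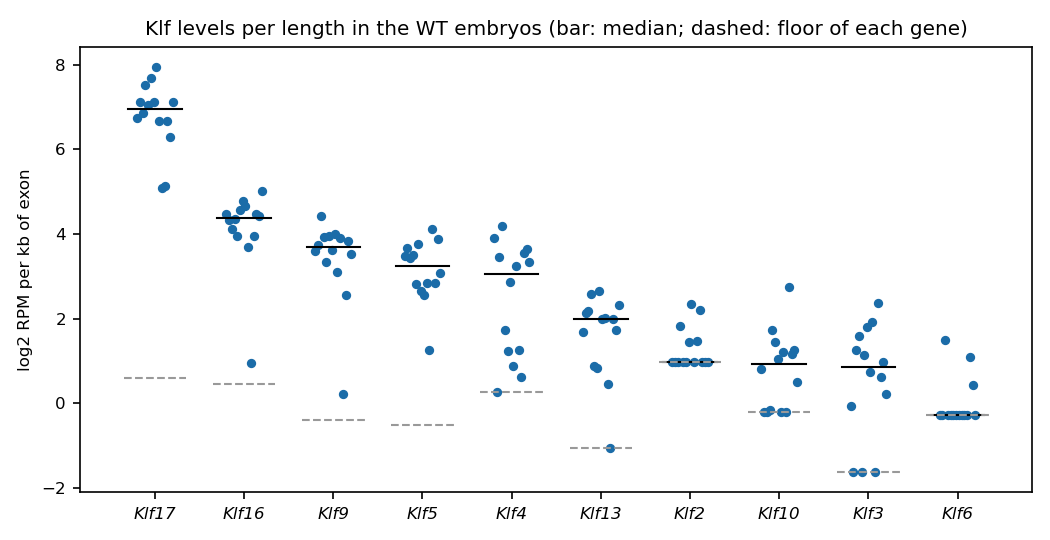
Level per length (log2 RPM per kb of exon, y axis) of each Klf gene (x axis, in order of the median) in the 14 WT embryos; points are embryos, bars medians and dashed lines the floor of each gene. *Klf17* stands apart at a median of 6.95, and neighbours below it overlap.

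Between embryos of the same group and litter, the SD ran from 0.70 log2 for *Klf17* and 0.71 for *Klf5* to 1.33 for *Klf10*. Compared with genes within 0.5 log2 of the same mean level, *Klf10*, *Klf16*, *Klf4* and *Klf17* were among the more variable, with an SD above that of 95.4%, 95.1%, 92.1% and 83.9% of such genes, whereas *Klf5* and *Klf13* were above only 25.8% and 28.0%. For *Klf16* the spread came with a few low embryos: WT j had 2.36, HET1 h 2.76 and HET1 k 1.86 log2 RPM against group medians of 5.80 in WT and 6.32 in HET1. WT j and HET1 h were among the embryos that stood apart in the whole profile.

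Members were also set against each other over the 44 embryos, after each litter and group had been centred on its mean. Pearson correlations of the 45 pairs ran from -0.27 to 0.71 with a median of 0.11. The highest were *Klf16* with *Klf17* (r = 0.71, rho = 0.68), *Klf9* with *Klf16* (r = 0.61, rho = 0.48) and *Klf13* with *Klf16* (r = 0.52, rho = 0.39), and the lowest was *Klf2* with *Klf10* (r = -0.27, rho = -0.21). The genes of an embryo share its depth and library quality, which differ between embryos, and these values are given as descriptions.

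Among 5555 genes above the floor in at least 40 embryos, those most like the 4 members of the highest median log2 RPM were found in the same way. For *Klf17* they were *Pou5f1*, which encodes the pluripotency factor Oct4 (r = 0.89, rho = 0.86), *Snrpa* of the U1 splicing particle (r = 0.89, rho = 0.88) and *Dtx2* (r = 0.88, rho = 0.82). For *Klf16* they were *Zfp574* (r = 0.88, rho = 0.80), *Poldip3* (r = 0.87, rho = 0.80) and the creatine kinase gene *Ckb* (r = 0.87, rho = 0.77). For *Klf9* they were *Rrn3*, an initiation factor of RNA polymerase I (r = 0.78, rho = 0.58), *Bcas3* (r = 0.76, rho = 0.54) and *Eif3h*, a subunit of a translation initiation factor (r = 0.75, rho = 0.56). For *Klf5* likeness was weaker, with *Inpp5a* (r = 0.67, rho = 0.54), *Abhd12* (r = 0.66, rho = 0.51) and *Sh3rf1* (r = 0.61, rho = 0.43). All rest on the same 44 embryos, and rho fell below r by over 0.1 for each gene named beside *Klf5* and *Klf9*.

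The study asked whether two-cell embryos that lack *Dppa2* and *Dppa4* still activate their genome, and the Klf genes were compared on that design. None of the 10 members was called between HOM and WT embryos (0 of 10 by limma at an adjusted p of 0.05; 0 of 10 at an unadjusted p under 0.05; 0 of 10 by limma voom on recovered reads), where 0.045% of the 13338 genes tested were called. *Klf17* stood at 8.49 ± 0.51 log2 RPM in HOM (SD, n = 10; 7.92 to 9.36) and 8.05 ± 0.83 in WT (n = 14; 6.34 to 9.20), a difference of 0.44 with a 95% interval of -0.14 to 1.03. *Klf5* stood at 6.11 ± 0.63 and 5.51 ± 0.73 (difference 0.61, interval -0.01 to 1.22), and *Klf4* at 4.52 ± 1.20 and 4.05 ± 1.37 (difference 0.47, interval -0.53 to 1.46). *Klf2* was above the floor in 5 of 10 HOM and 5 of 14 WT embryos. Differences were positive for 9 of 10 members, with a median of 0.53 beside 0.17 over all genes tested, and *Klf3* alone was negative (-0.24, interval -1.17 to 0.70). Most genes tested were positive as well, as their median shows. That all-gene median was 0.09 with embryos re-scaled by median ratio and 0.45 on the deposited values without the common floor. The members were not tested as a set. Lower bounds of the intervals ran from -1.17 for *Klf3* to -0.01 for *Klf5*, and upper bounds from 0.70 for *Klf3* to 1.86 for *Klf10*. The model for the comparisons with WT holds no litter term, so its intervals take embryos as independent and leave out the spread between litters. Over all genes, 2202 were at an unadjusted p under 0.05 by limma in this model. With litter as a random effect there were 694, and with litter means 303.

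In HET1 against WT, again 0 of 10 members were called by limma, where 6.51% of genes were (1 of 10 at an unadjusted p under 0.05; 0 of 10 by voom). That share changed with depth and litters: the 868 genes called fell to 0 with depth as a covariate (1706 at an unadjusted p under 0.05) and to 5 without the second HET1 litter, and rose to 2563 without the first. The smallest p was that of *Klf10*, a TGF-beta inducible member, at 4.03 ± 1.73 in HET1 (n = 15) and 2.84 ± 0.91 in WT (difference 1.19, limma adjusted p = 0.18). The HET1 litters differed in this gene, as described below: without the first HET1 litter, *Klf10* (2.23, limma adjusted p = 0.0057) and *Klf9* (-1.29, adjusted p = 0.037; -0.50 with both litters) passed the threshold, and without the second none did. The values of the remaining 8 members lay between -0.43 for *Klf13* and 0.73 for *Klf4*. The median over members was 0.31 beside 0.10 over all genes, and the all-gene median was 0.42 on the deposited values without the common floor.

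In HET2 against WT, 0 of 10 members were called by limma, where 0.0375% of genes were (2 of 10 at an unadjusted p under 0.05; 0 of 10 by voom). *Klf6*, an early response gene in other cells, came nearest. It stood at 4.81, 3.94, 4.98 and 5.77 log2 RPM in HET2 a, b, c and d and at the floor, with no read, in HET2 e, against 1.86 to 3.63 in the 14 WT embryos, of which 3 were above the floor. The first litter's 4 embryos were thus all above every WT embryo, and the single embryo of the second litter was not. The difference was 2.13 (SE 0.52, interval 1.08 to 3.19, limma adjusted p = 0.173). Without HET2 e, the embryo with *Dppa2* within the WT range, it was 2.74 (limma adjusted p = 0.013), with array weights it was 2.13 (adjusted p = 0.015), and under both *Klf6* was called. Over all genes the calls rose as well, from 5 to 57 without HET2 e and to 92 with array weights. *Klf10* showed a like pattern of 5.97, 1.86, 6.52 and 6.05 in HET2 a to d and 1.86 in HET2 e, with a difference of 1.61 (limma adjusted p = 0.533). *Klf2* was at the floor in all 5 HET2 embryos, with reads in HET2 e alone. The comparisons with WT share the WT embryos and are not independent of each other.

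HOM and HET2 embryos share mothers and litters, so their difference was fitted within litters. None of the 10 members was called (0 of 10 by limma; 0 of 10 at an unadjusted p under 0.05; 0 of 10 by voom), where 0.015% of genes were. Differences ran from -0.56 for *Klf6* (interval -1.71 to 0.60) to 0.97 for *Klf16* (interval -0.34 to 2.29). In the first litter *Klf6* stood at 4.33, 1.93 and 4.64 log2 RPM in the 3 HOM embryos beside 3.94 to 5.77 in the 4 HET2 embryos, so it was high in embryos of both genotypes there. The median over members was 0.54 beside 0.18 over all genes. That all-gene median was 0.06 when embryos were re-scaled by median ratio and 0.38 on the deposited values without the common floor. Differences in this comparison are therefore best read relative to the all-gene median. With 5 HET2 embryos the intervals are wide, the widest being that of *Klf10* (-1.96 to 1.29).

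**Figure D3:**
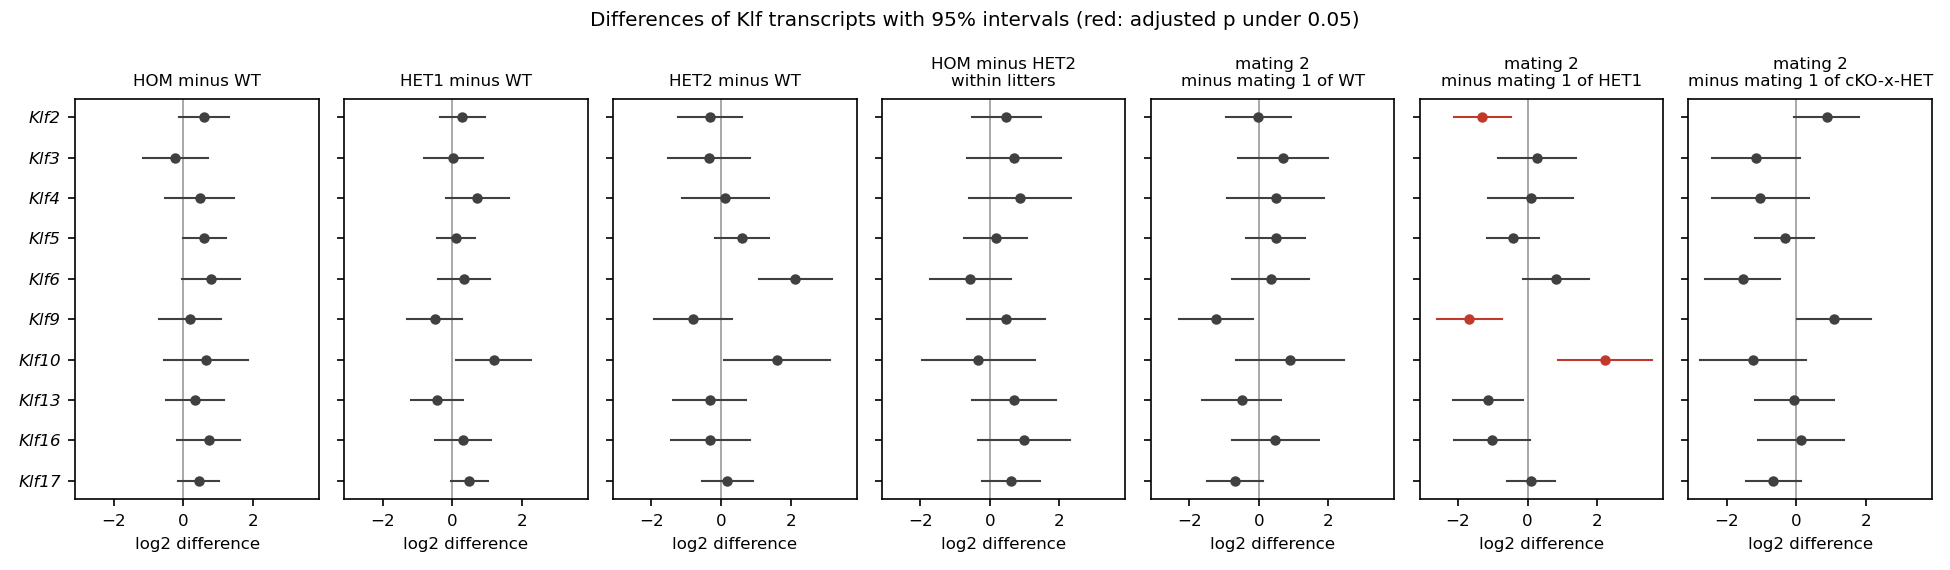
Difference of each Klf gene (y axis) on the log2 scale (x axis) with its 95% interval in the 4 genotype comparisons and the 3 comparisons of litters of the same cross; red marks an adjusted p under 0.05 by limma. Only *Klf2*, *Klf9* and *Klf10* between the HET1 litters are red.

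Litters of the same cross were compared next. Between the HET1 litters, whose embryos have the same genotype, 3 of 10 members were called by limma (mating 2 minus mating 1), where 22% of genes were. Of these, 2 were lower, beside 15.5% of genes, and 1 was higher, beside 6.48%. The share of members is thus near the background, and the result concerns the genes named and not the family. With embryos re-scaled by median ratio, the split over all genes moved from 864 higher and 2073 lower to 1249 higher and 1589 lower, and the all-gene median from -0.18 to -0.06; the 3 members stayed called in the same direction.

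*Klf2*, an activator of the pluripotency network, fell by 1.30 on the log2 scale (SE 0.41, limma adjusted p = 0.018). It was above the floor in 5 of 7 embryos of the first litter (1.86 to 4.85, median 2.89) and in 0 of 8 of the second. Summed over embryos, this was 48 reads of 5347202 (8.98 RPM) against 2 reads of 6110644 (0.33 RPM), a ratio of 0.036 with an exact 95% interval of 0.004 to 0.139 that covers counting error only. The litters overlapped only at the floor. Among embryos of at least 500000 reads (4 and 5), the difference was -0.67 and no longer called (limma adjusted p = 0.27).

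*Klf9*, a thyroid and steroid hormone responsive member that binds Sin3, fell by 1.68 (SE 0.47, limma adjusted p = 0.0069). It ran from 4.85 to 6.66 (median 6.39) in the first litter and from 1.86 to 5.67 (median 5.05) in the second, and the ranges overlapped. It was called under all 10 alternatives run, with values from -2.57 to -1.32. *Klf13* and *Klf16*, of the same group, differed by -1.14 (limma adjusted p = 0.093) and -1.02 (adjusted p = 0.18). These values did not pass the threshold.

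*Klf10* was higher in the second litter by 2.23 (SE 0.67, limma adjusted p = 0.013). It was above the floor in 8 of 8 embryos there (3.14 to 6.68, median 5.18) and in 3 of 7 of the first (1.86 to 4.98, median 1.86). Among embryos of at least 500000 reads the difference was again 2.23, with an adjusted p of 0.11 by limma. *Klf3*, *Klf4*, *Klf5* and *Klf17* differed by -0.41 to 0.26, and their intervals reached at most 1.39 log2 from 0. *Klf6* differed by 0.82 (interval -0.15 to 1.78).

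Between the cKO-x-HET litters, with the genotype in the model, 0 of 10 members were called by limma, where 6.44% of genes were (2 of 10 at an unadjusted p under 0.05). By voom, 1 was called, *Klf6* (-2.68, adjusted p = 0.035), whose limma difference was -1.55 (adjusted p = 0.071). *Klf9* stood at 4.86 in the first litter and 6.14 in the second (difference 1.08, interval 0.02 to 2.14, limma adjusted p = 0.21), and *Klf2* at 1.89 and 2.96. Between the WT litters, 0 of 10 members were called by limma (1 of 10 at an unadjusted p under 0.05; 0 of 10 by voom), where 1.79% of genes were. *Klf9* stood at 6.03 ± 0.37 in the first WT litter (n = 10) and 4.80 ± 1.63 in the second (n = 4), a difference of -1.22 (limma adjusted p = 0.25) that was -0.44 without WT j, WT k and HET1 h. WT k alone held 2.49.

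Two-cell markers moved with the litters. Mean levels of *Zscan4d* were 6.25 in the second HET1 litter and 5.53 in the first cKO-x-HET litter, against 3.10 to 4.18 in the other 4. *Tcstv3* was at 6.73 and 5.88 in these litters against 3.09 to 4.79, and *Zfp352* at 7.24 and 6.80 against 4.40 to 5.83. Of the 6 markers, 5 were higher in the second HET1 litter than in the first by limma, beside 6.48% of all genes called higher, *Sp110* being the exception (0.07, adjusted p = 0.89). The same pair of litters had the highest means of *Klf10* (5.07 and 4.56 against 2.59 to 3.48) and of *Klf6* (2.86 and 4.34 against 2.04 to 2.54) and the lowest of *Klf2* (1.86 and 1.89 against 2.17 to 3.16). *Klf9* was at 4.39 and 4.86 there, but at 4.80 in the second WT litter too. The summed level of the 6 markers was 509 to 1485 RPM in the second HET1 litter, 468 to 1098 RPM in the first cKO-x-HET litter and 208 to 886 RPM in the others. The summed level of the 5 oocyte markers was also highest in the second HET1 litter, at a median of 3450 RPM against 1793 to 2228 RPM elsewhere. By mean log2 RPM only *Dppa3* and *Gdf9* were highest there. *Zp3* stood at 5.05 there against 6.05 in the first HET1 litter, and *Bmp15* at 9.56 against 9.89 in the first cKO-x-HET litter. *Nlrp5* was highest in the first cKO-x-HET litter, at 5.57. The part of these markers, or of whatever sets the litters apart, in the Klf differences was not tested. With 2 litters to a cross, p-values between litters measure the spread of embryos within litters, so they compare these litters only.

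**Figure D4:**
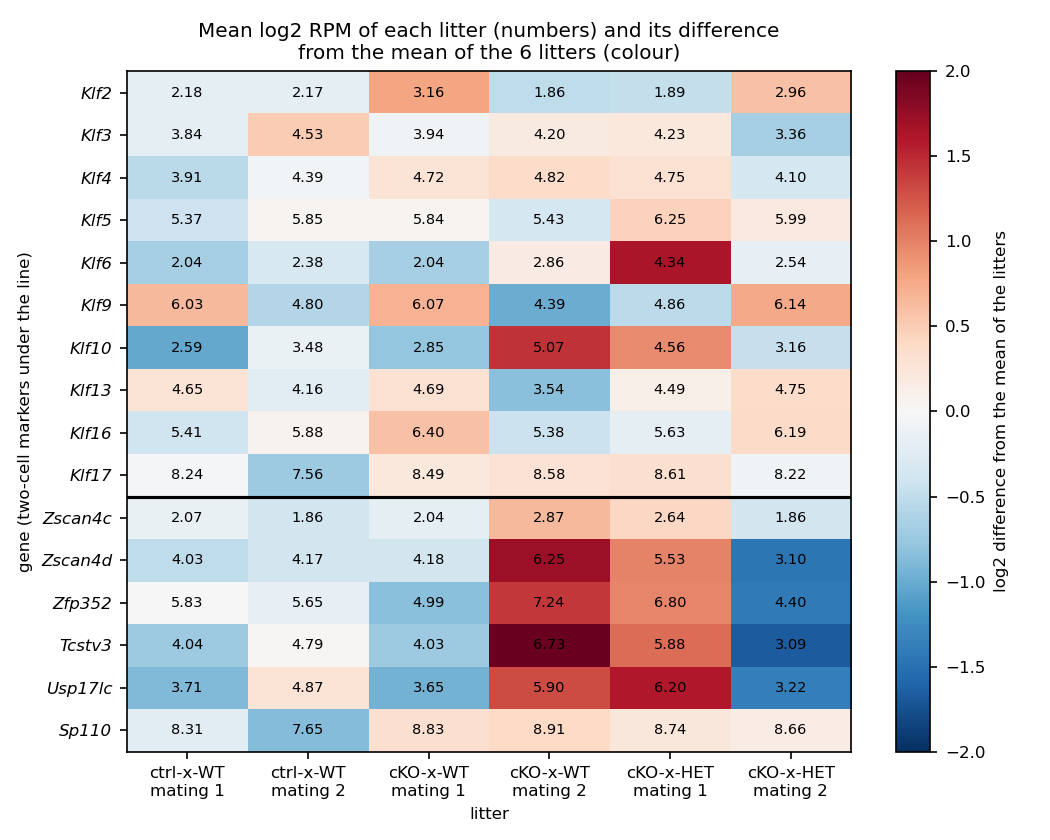
Mean log2 RPM (numbers) of the Klf genes and the 6 two-cell markers (rows) in each litter (columns), with colour for the difference from the mean of the 6 litters; the cKO-x-HET litters hold HET2 and HOM embryos together. *Klf10* and *Zscan4d* are highest, and *Klf2* lowest, in the second cKO-x-WT litter and the first cKO-x-HET litter.

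Within litters the link of members to the two-cell markers was of another order. Over 44 embryos centred on their litter and group, the mean level of the 6 markers had its highest correlation with *Klf17* (r = 0.57, rho = 0.57), and lower ones with *Klf6* (r = 0.35), *Klf4* (r = 0.33) and *Klf10* (r = 0.31). For *Klf9* it was 0.04 within litters and -0.44 without centring. These are descriptions over embryos that differ in depth and library quality.

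The related genes behaved as follows. Of the other 7 Klf genes, *Klf7*, *Klf8* and *Klf11* passed the filter, *Klf12* and *Klf15* had no read in any embryo, and *Klf1* and *Klf14* had reads in 4 embryos each. *Klf11*, of the Sin3-binding group, was at 6.09 ± 0.60 log2 RPM (SD, n = 44). *Klf8*, a repressor that recruits CtBP like *Klf3*, was called lower in HET1 than in WT (-1.53, SE 0.48, limma adjusted p = 0.043). It stood at 2.66 ± 1.25 in HET1 and 4.19 ± 1.72 in WT, and its ranges overlapped. The call was made under 6 of 17 alternatives. The value was -2.30 without the first HET1 litter, and the call was lost without the second HET1 litter (-0.65, limma adjusted p = 0.61) or without the first WT litter (-1.07, adjusted p = 0.51). It was also lost, at a like value, with litter as a random effect (-1.43, limma adjusted p = 0.66) or depth as a covariate (-1.47, adjusted p = 0.26). *Klf8* was at 2.59 ± 0.89 in HOM and 2.64 ± 1.08 in HET2 (differences from WT of -1.60 and -1.56, limma adjusted p = 0.14 and 0.50). Of the 3 that passed the filter, *Klf7* and *Klf11* were called in none of the 7 comparisons by limma.

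Of 9 Sp factors, which bind the same GC boxes, 6 were tested. Between the HET1 litters 1 of 6 was called, beside 22% of all genes: *Sp6* was lower in the second litter (-1.52, limma adjusted p = 0.035; called under 6 of 10 alternatives, and not without WT j, WT k and HET1 h, where it was -1.21 with an adjusted p of 0.087). Of 12 cofactors and ligases of Klf proteins, all were tested. *Sin3a*, the scaffold bound by *Klf9*, *Klf10*, *Klf13* and *Klf16* proteins, was higher in HET1 than in WT (0.78, limma adjusted p = 0.033). The *Sin3a* call was made under 8 of 17 alternatives, and not with litter as a random effect (0.76, limma adjusted p = 0.61), with depth as a covariate (0.45, adjusted p = 0.49), by voom, without the first WT litter, without the second HET1 litter or without WT j, WT k and HET1 h (0.63, adjusted p = 0.10). Between the HET1 litters 4 of 12 were called, beside 22% of all genes, *Hdac2* higher (1.18) and *Kat2b* (-2.78), *Hdac1* (-1.01) and *Ep300* (-0.82) lower. Of 10 alternatives, *Hdac2* was called under 8, *Ep300* under 7 and *Hdac1* under 5; *Hdac1* and *Ep300* were not called with embryos re-scaled by median ratio, nor *Ep300* without WT j, WT k and HET1 h (-0.69, limma adjusted p = 0.059). *Kat2b*, which encodes an acetyltransferase, was also the only one of the 12 called between the cKO-x-HET litters, where 6.44% of all genes were, in the opposite direction (2.1, limma adjusted p = 0.010). Its means were 2.33 ± 0.84 in the second HET1 litter (n = 8) against 5.11 ± 0.83 in the first (n = 7), and it was called in both comparisons under all 10 alternatives. In the first cKO-x-HET litter *Kat2b* was at the floor in the 4 HET2 embryos and at 2.74 ± 0.80 in the 3 HOM embryos, and in the second it was at 3.74 in the single HET2 embryo and at 4.93 ± 0.67 in the 7 HOM embryos.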

How the data were processed

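The authors trimmed reads (Trim Galore 0.6.5, cutadapt 2.3), mapped them to GRCm38 with HISAT2 2.1.0, kept those of MAPQ 20 or more and quantified mRNA probes in SeqMonk without strand; the deposited values are log2 RPM. A gene without reads holds the value of 0.9 read, so reads were recovered from the steps (99.9997% within 0.05 read of a whole number), and values were raised to the common floor of 1.86. The reads carry no molecular identifiers, so depths and the interval on summed reads cover counting error only (0 reads allow up to 3); the intervals of differences come from limma and the spread between embryos.

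Genes above the floor in at least 5 embryos (13338) were fitted in limma 3.58.1, run in R 4.3.3 (eBayes with trend, Benjamini-Hochberg over all genes, 0.05), with 4 groups in one model, or 6 litters and the HOM genotype. Alternatives covered floor, pseudocount, filters, scaling, voom, weights, depth, litter, mating number and embryos. All 10 members were named, genes called in 3 related lists, and the 3 genes most like each of the 4 members of the highest median level. Members and lists were chosen with earlier results of these data known. Embryos are separate animals, but only 2 litters represent each cross. Exon lengths come from GENCODE. Figures were drawn with matplotlib.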

Additional observations from a re-analysis of the deposited data

Results flagged for a closer look

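One value stood out in its group. *Klf3* in HET2 embryo b, of the first cKO-x-HET litter, was at 4.66 log2 RPM (28 reads), above the other 4 HET2 embryos, the nearest of which was at 3.67; the gap was 0.731 of the range of the group. Over 19 pairs of member and group of 4 to 10 embryos, 1 was set apart in this way, and chance sets apart about 1 in 20. By limma, the difference between HOM and HET2 embryos was called as differing between the litters in 0 of 10 members, where 0.112% of genes (15 of 13338) were, and 0 of 10 had an unadjusted p under 0.05. The second litter holds a single HET2 embryo, which the fit takes to vary like the others, so the count says little of the members.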

How the results depend on the processing

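Counts of members called kept within 1.5 times of the value given, 0 in 6 comparisons and 3 between the HET1 litters, except as follows. In HET1 against WT, leaving out a litter gave 0 to 2 calls. In HET2 against WT, leaving out a litter or a HET2 embryo gave 0 to 1 calls, and array weights gave 1. Between the cKO-x-HET litters voom gave 1. Between the HET1 litters, embryos of at least 500000 reads (chosen after the values were seen, as was leaving out the 3 embryos least like the others) gave 1. The cause was not tested, beyond the fewer embryos of the last setting (36 of 44). No called member changed direction under any alternative run. Of the values of single members under alternatives, 940 kept their direction and their side of the threshold, 67 changed sign without being called, 7 gained and 2 lost a call.

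Mating numbers mark different animals in different crosses, and the litter differences correlated over genes at 0.402, -0.382 and -0.72 between crosses, so no pairing of litters by number was assumed. With the mating number as a replicate block, 0 members were called in the 3 comparisons with WT, and 12, 745 and 6 genes in all, against 6, 868 and 5. In HET1 against WT, limma made 0 calls over all genes with litter as a random effect (1010 at an unadjusted p under 0.05), with litter means (272) and with depth as a covariate (1706). *Klf2* and *Klf6* had the fewest reads of the members, at a median of 2.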
